A study of Homo sapiens with 12 samples.

Results

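The response to doxycycline (Dox) that was common to both inducible hairpin constructs was measured in RD cells, an established human line from an embryonal rhabdomyosarcoma, a soft-tissue tumour with features of developing skeletal muscle. The cells carried a hairpin against NT5E, titled ish or ish2 in the labels. NT5E encodes CD73, an ectoenzyme that turns extracellular AMP into adenosine. Each construct was grown with 10 ng/mL Dox or without it for 96 h after 24 h of attachment, in 4 groups of 3 libraries: ish without Dox, ish with Dox, ish2 without Dox and ish2 with Dox. All 12 libraries of the series entered one fit. Every group carried an integrated hairpin construct, and no group with a hairpin against another sequence, or without a hairpin, was analysed here. Effects of Dox itself and of the knockdown therefore cannot be told apart in the genes that moved with both constructs. Whether each construct is a clone or a pool, and whether the 3 libraries of a group are separate cultures, is not stated in the labels, so p-values measure the spread between these libraries.

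A gene was called in a construct when its Benjamini-Hochberg adjusted p for Dox against no Dox was under 0.05 by edgeR's quasi-likelihood test over 15206 tested genes. The common response was the set of genes called in both constructs with the same sign. These were 4249 genes, 2100 higher and 2149 lower with Dox. The 2 contrasts share no library. At a change of at least 1.5-fold in each construct, 270 genes were higher and 323 lower with Dox in both. Just inside that limit were PRDM8, ZNF395 and KCNG4, whose smaller log2 changes were 0.585 to 0.587 in size. Just outside it were CSPG5, SLC6A16 and CPEB4, at 0.583 to 0.585.

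In an inducible hairpin system, Dox lets a tetracycline-controlled promoter transcribe a short hairpin RNA, which the cell's Dicer and Argonaute proteins use to cut or silence the matching messenger RNA. Dox also binds bacterial and mitochondrial ribosomes. Dividing cells run their replication and mitosis genes in waves. Factors of the E2F family drive the S phase set. The DREAM and MuvB complexes with FOXM1 govern the mitotic set through a CHR element, TTTGAA, in promoters that often hold CCAAT boxes too. Rhabdomyosarcoma cells divide while expressing MYOD1, and in normal myoblasts cell-cycle exit accompanies the muscle programme.

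The targeted gene was read first. NT5E (chr6:85449584-85495791, plus strand) stood at 14.9, 18.0 and 17.3 CPM, reads scaled to library size, in the ish libraries without Dox and at 1.94, 1.23 and 1.54 CPM with Dox. In ish2 it stood at 24.1, 23.5 and 22.1 CPM without Dox and at 14.5, 15.2 and 14.1 CPM with Dox. The groups did not overlap in either construct, and the remaining level was far higher in ish2. The change was 10.7-fold in ish (log2 -3.41 ± 0.11, SE) and 1.59-fold in ish2 (log2 -0.67 ± 0.06), and the ish2 effect minus the ish effect was 2.74 in log2 units (95% interval 2.48 to 3.00). So the common response joins a deep and a shallow knockdown, and NT5E itself is one of its members.

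The libraries held 26566603 to 32692207 gene counts each. RD identity was checked on MYOD1, DES and MYOG, which were well expressed, while MYF5 had at most 1 read in any library. Of the markers of other cell types, PTPRC and CD3E had at most 2 reads each, KDR and KRT19 at most 1 and CDH5 at most 3. More reads were found for PECAM1 (1 to 9), TIE1 (0 to 11) and ITGAM (2 to 18). The endothelial, epithelial, neural and fibroblast lists held expressed genes, with sums given further on. Not every tested member was expressed: LUM, of the fibroblast list, had 1 to 6 reads per library without Dox. In bulk RNA, fewer cells of a type and less RNA per cell cannot be told apart. The share of read pairs assigned to no gene moved with Dox in opposite directions, from 11.7-12.1% to 12.7-12.9% in ish and from 11.596-12.004% to 10.8-11.1% in ish2; its part in the results below was not tested.

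Dox changed most of the transcriptome in each construct. In ish, 11945 genes were called (78.6% of those tested) and in ish2 9883 (65%). Genes higher with Dox in both made up 13.8% of all tested genes and genes lower in both 14.1%, whereas 3971 genes (26.1%) were called in both with opposite signs. The common genes were thus 35.6% of the ish calls and 42.99% of the ish2 calls, and 51.7% of the 8220 genes called in both. That last share was lower among larger changes: 43.3% at 1.5-fold or more and 32.2% at 2-fold or more. At 1.5-fold, 1.78% of tested genes were higher in both, 2.12% were lower in both and 776 (5.1%) moved in opposite directions.

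**Figure D1:**
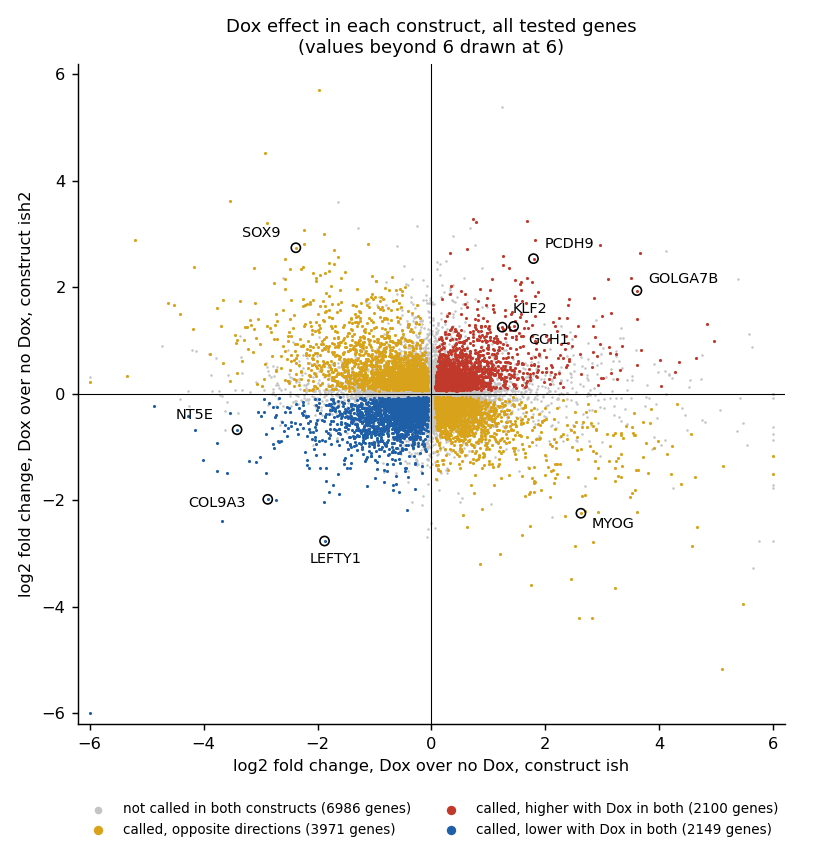
Each point is one of the 15206 tested genes, with its log2 fold change with Dox in ish on the x axis and in ish2 on the y axis. Red and blue genes (2100 and 2149) were called with the same sign in both constructs and yellow genes (3971) with opposite signs; KLF2, GCH1 and PCDH9 lie in the upper right and LEFTY1, COL9A3 and NT5E in the lower left.

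The mean of the 2 within-construct effects was called for 11300 genes (74.3%), 5628 higher and 5672 lower. A called mean was not the same as a common response: 4249 of these genes (37.6%) were called with the same sign in both constructs, 4386 were called in 1 construct only, 2540 in opposite directions and 125 in neither. Among the 858 genes whose mean effect was at least 2-fold, 435 moved the same way in both, 330 were called in 1 construct only and 93 went in opposite directions. The values below are therefore given for each construct.

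The markers of the common response, KLF2, GCH1, PCDH9 and LEFTY1, each moved the same way in both constructs, with no overlap of libraries between Dox and its controls. They were named with these data known, so their values are a description. KLF2 (chr19:16324817-16327874, plus strand) encodes a zinc-finger transcription factor known for its response to blood flow in endothelium and for quiescence in lymphocytes. KLF2 read 13.6, 11.5 and 12.2 CPM in ish without Dox and 29.1, 29.8 and 29.3 CPM with Dox. In ish2 it read 19.4, 17.7 and 18.9 CPM without Dox and 43.2, 44.5 and 45.9 CPM with Dox. The ish2 cells started higher and the change was the same size: 2.37-fold in ish and 2.38-fold in ish2 (log2 1.243 ± 0.05 and 1.253 ± 0.05). The difference of the 2 effects was 0.01 on the log2 scale, with a 95% interval from -0.14 to 0.16.

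GCH1 (chr14:54842008-54902852, minus strand) encodes GTP cyclohydrolase, the first and rate-limiting enzyme of tetrahydrobiopterin synthesis. It stood at 1.28, 1.44 and 1.06 CPM in ish without Dox and at 3.58, 2.86 and 3.82 CPM with Dox. In ish2 the values were 1.08, 1.202 and 1.19 CPM without Dox and 2.64, 2.30 and 3.39 CPM with Dox. The change was 2.72-fold in ish and 2.41-fold in ish2, and no Dox library overlapped its controls. The effects differed by -0.18 (95% interval -0.68 to 0.32), an interval that still holds sizeable differences at these low counts.

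PCDH9 (chr13:66302834-67230445, minus strand), a protocadherin of neural cell contacts, rose more in ish2, the construct with the shallower NT5E knockdown. It read 1.45, 1.15 and 1.18 CPM in ish without Dox and 4.04, 4.32 and 4.71 CPM with Dox. With ish2 the values were 1.77, 1.43 and 1.37 CPM without Dox and 9.25, 8.75 and 8.66 CPM with Dox. The change was 3.46-fold in ish and 5.82-fold in ish2, and the effects differed by 0.75 (95% interval 0.38 to 1.12).

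LEFTY1 (chr1:225886282-225911382, minus strand), a secreted inhibitor of NODAL, also moved more in ish2. It stood at 4.44, 3.83 and 3.97 CPM in ish without Dox and at 0.886, 1.495 and 0.954 CPM with Dox. In ish2 it stood at 2.60, 2.78 and 2.39 CPM without Dox and at 0.377, 0.334 and 0.415 CPM with Dox. The fall was 3.67-fold in ish and 6.79-fold in ish2, with a difference of -0.89 (95% interval -1.45 to -0.33). LEFTY2 is a close copy, so the counting may have split reads between them. It had 5 to 15 reads per library and was called in neither construct (log2 -0.89 in ish, edgeR adjusted p = 0.0547, and -0.25 in ish2). The LEFTY2 fall in ish was called without replicate 3 of the ish controls (-1.22, edgeR adjusted p = 0.0111) or of the ish2 controls (-0.90, edgeR adjusted p = 0.0465).

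**Figure D2:**
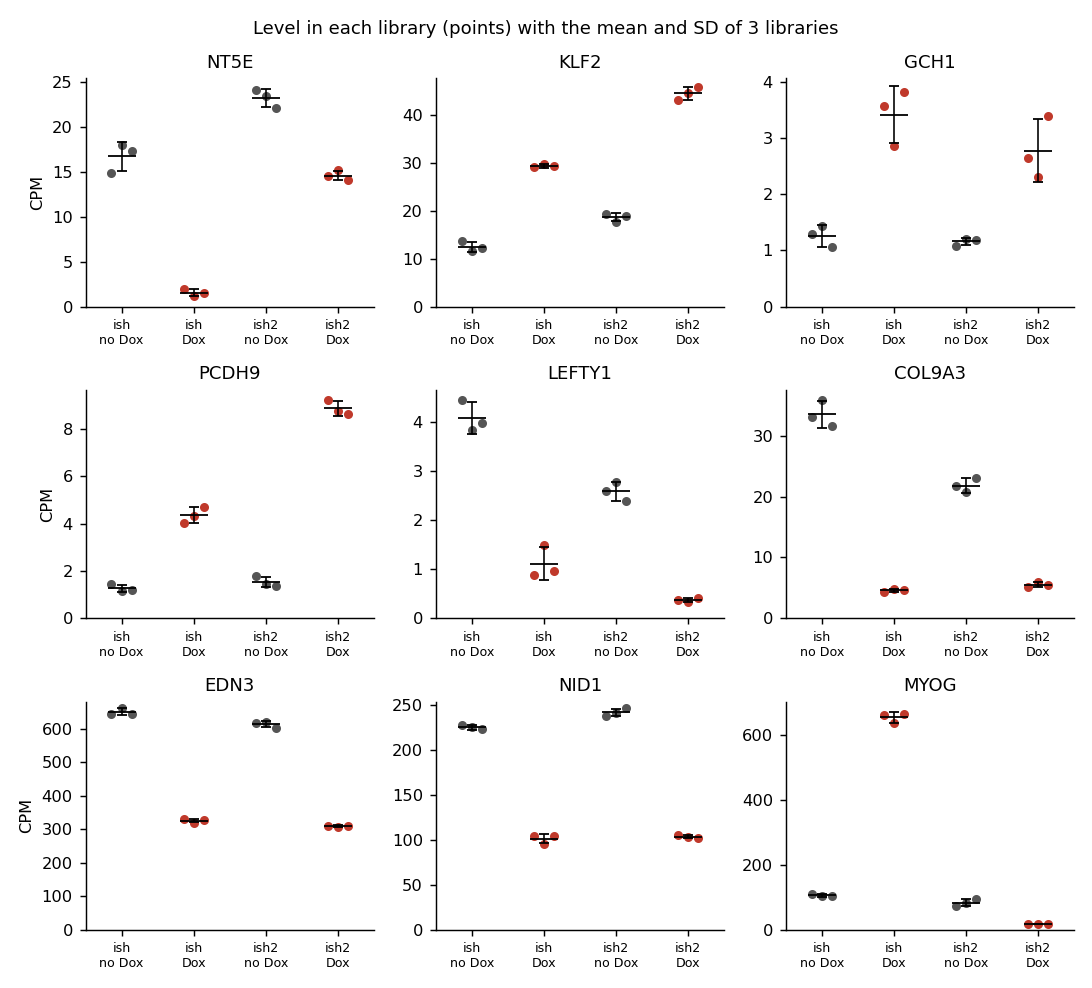
CPM on the y axis for 9 genes in each of the 12 libraries, grouped by construct and treatment, with the mean and SD of 3 libraries. In the common genes both Dox groups lie on the same side of their controls, as for KLF2 (29.4 against 12.4 CPM in ish, 44.5 against 18.7 CPM in ish2), whereas MYOG lies on opposite sides.

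The largest common rises and falls were ranked by the smaller of both changes, with at least 1 log2 CPM in the higher group and no overlap of libraries. Of the rises not yet given, GOLGA7B, a partner of palmitoyl transferases, read 1.12, 1.08 and 1.27 CPM in ish without Dox against 13.7, 13.99 and 14.8 CPM with Dox. In ish2 it went from 1.41, 1.39 and 1.88 CPM to 6.202, 5.19 and 6.52 CPM. That was 12.2-fold in ish and 3.83-fold in ish2, and the effects differed (-1.67, 95% interval -2.02 to -1.32).

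GRAMD1B, a cholesterol carrier at contacts between endoplasmic reticulum and plasma membrane, rose 3.53-fold in ish and 3.57-fold in ish2, a difference of 0.02 on the log2 scale (95% interval -0.55 to 0.58). Its level went from 0.621-0.790 CPM to 2.23-3.02 CPM in ish and from 0.578-0.638 CPM to 2.06-2.41 CPM in ish2. RNF125, a ubiquitin ligase that acts on RIG-I, rose 3.02-fold in ish and 3.36-fold in ish2. COL13A1, a transmembrane collagen of the neuromuscular junction, rose 2.76-fold in ish and 3.56-fold in ish2, although ish2 started lower (1.34 against 2.37 CPM).

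CADPS2, which primes dense-core vesicles for release, rose 7.996-fold in ish and 2.75-fold in ish2. PLA2G4C, a cytosolic phospholipase A2, rose 4.49-fold and 2.41-fold. Both effects were larger in ish by the test of the difference (-1.54 and -0.90 on the log2 scale). ELAVL2, a neuronal RNA-binding protein that stabilises AU-rich messages, rose 3.16-fold in ish and 2.57-fold in ish2, and its difference was not called (-0.30, 95% interval -0.64 to 0.05).

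EIF5A2 encodes the second isoform of the hypusine-bearing translation factor. It read 5.50, 6.32 and 5.03 CPM in ish without Dox and 14.6, 14.5 and 15.02 CPM with Dox. In ish2 the level was 5.78, 5.74 and 5.21 CPM without Dox and 12.2, 13.6 and 12.8 CPM with Dox. The isoforms parted: EIF5A2 rose 2.62-fold and 2.31-fold, whereas EIF5A fell in ish (log2 -0.19) and rose in ish2 (0.30). AGT, the precursor of angiotensin, rose 2.11-fold in ish and 3.03-fold in ish2, and the effect was greater in ish2 (difference 0.52, 95% interval 0.30 to 0.74). PCLO, a scaffold of the presynaptic zone, rose 2.04-fold and 2.11-fold. CYP2W1 and KIAA1217 complete the 15, with rises of 2.80-fold and 3.04-fold in ish and 2.11-fold each in ish2.

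Among the largest common falls, COL9A3 (chr20:62816244-62841159, plus strand), a chain of the cartilage collagen type IX, went from 33.1, 36.0 and 31.5 CPM to 4.23, 4.75 and 4.71 CPM in ish. In ish2 it went from 21.7, 20.7 and 23.1 CPM to 5.21, 5.93 and 5.46 CPM. Both Dox groups ended near the same level from different starting points, a fall of 7.33-fold in ish and 3.95-fold in ish2.

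DRAXIN, a secreted repellent for growing axons, fell 3.71-fold with ish and 4.09-fold with ish2. It read 6.06, 6.51 and 5.56 CPM in ish without Dox and 1.64, 1.69 and 1.54 CPM with Dox. In ish2 the levels were 4.66, 5.11 and 5.28 CPM without Dox and 1.27, 1.30 and 1.12 CPM with Dox. The effects were not called as different (-0.14, 95% interval -0.51 to 0.23). MYT1, a zinc-finger factor of neural precursors, fell 4.44-fold with ish and 2.62-fold with ish2.

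NID1, a basement membrane glycoprotein, links laminin and collagen IV. It stood at 228, 225 and 223 CPM in ish without Dox and at 104, 95.5 and 104 CPM with Dox. In ish2 it stood at 238, 242 and 247 CPM without Dox and at 105, 103 and 102 CPM with Dox. It fell 2.23-fold with ish and 2.34-fold with ish2, and the difference was -0.07 (95% interval -0.16 to 0.02).

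IGFBP2, which binds insulin-like growth factors, fell 2.66-fold with ish and 2.22-fold with ish2, from 472-486 CPM to 173-186 CPM and from 409-424 CPM to 185-188 CPM. TRIL, a co-receptor of Toll-like receptor 4, fell from 494-524 CPM to 54.3-56.4 CPM in ish and from 312-337 CPM to 129-141 CPM in ish2. The fall of TRIL was 9.23-fold in ish and 2.40-fold in ish2, and the difference of 1.94 was larger in size than the ish2 effect of -1.27. ACOT12, a cytosolic acetyl-CoA hydrolase, and DUSP9, a phosphatase of ERK, likewise fell more in ish (13.7-fold and 7.49-fold) than in ish2 (2.71-fold and 2.80-fold).

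Others of the 15 were nearly matched between constructs. C8orf34 fell 3.33-fold with ish and 3.28-fold with ish2, from 9.92-11.1 CPM to 2.86-3.31 CPM and from 11.2-11.9 CPM to 3.22-3.80 CPM. PRRT2, a synaptic membrane protein, fell 2.25-fold and 2.39-fold. SHC3, a neuronal adaptor of receptor tyrosine kinases, fell 2.88-fold and 2.51-fold, and RARRES2, the chemokine-like chemerin, fell 2.90-fold and 2.37-fold. TP53I11 fell 4.56-fold with ish and 2.54-fold with ish2.

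**Figure D3:**
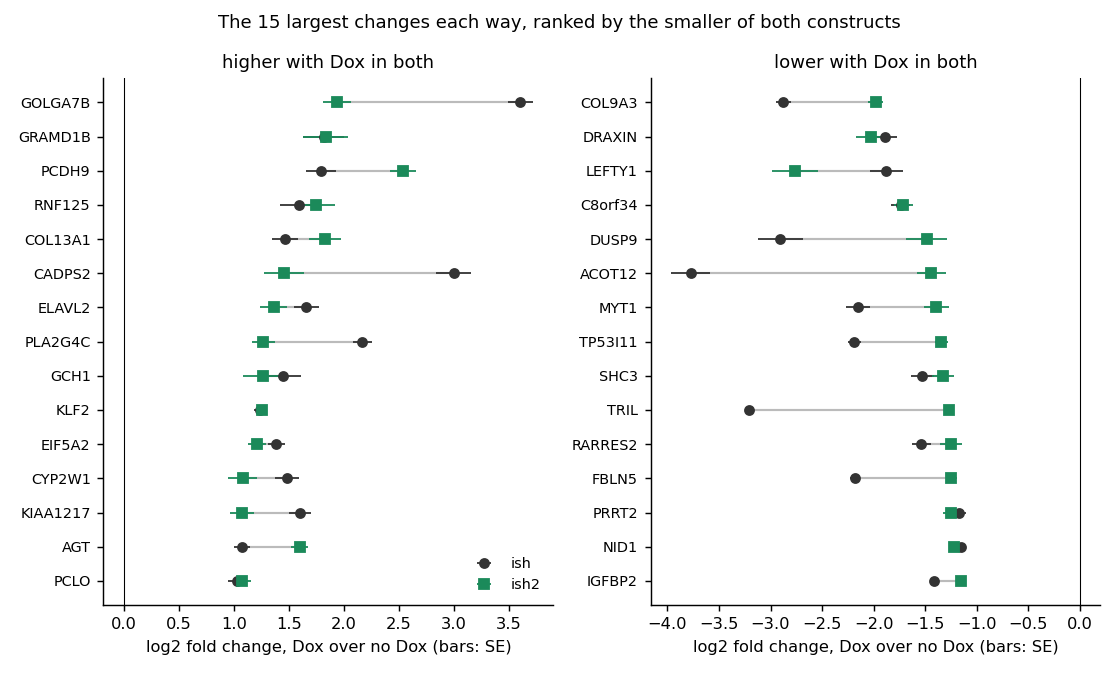
Log2 fold change with Dox (x axis) in ish (circles) and ish2 (squares), with SE, for the 15 largest rises and the 15 largest falls in both constructs. KLF2, GRAMD1B, PCLO, C8orf34 and NID1 have nearly equal effects in both, whereas GOLGA7B, CADPS2, ACOT12 and TRIL moved further in ish and PCDH9, AGT and LEFTY1 further in ish2.

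Of the 593 genes at 1.5-fold or more in both, 406 had the larger change in ish, the construct with the deeper knockdown. By the test of the difference, 238 of the 593 changed more in ish and 56 more in ish2, and for 299 no difference was called. Over all genes the difference was called for 72.6%. In 188 of the 593 the 2 effects lay within 0.2 of each other on the log2 scale. The median log2 change of the 270 rises was 1.13 in ish and 1.00 in ish2, and of the 323 falls -1.09 and -0.79. No library overlapped between Dox and control in either construct for 557 of the 593. Over all genes, 28.7% showed such separation with the same sign. The 593 were chosen by calls and folds in these same libraries, which favours separation, so the count is a description.

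The constructs also differed before Dox. Of the 323 falls, 132 were called between ish2 and ish without Dox, and of the 270 rises 55, beside 26.1% of all tested genes. The share called was thus above that of all genes in the falls and below it in the rises. The median size of that starting difference was 0.16 on the log2 scale in the falls and 0.23 in the rises, against 0.10 over all genes. The rises had a low median level (2.29 CPM, against 26.3 CPM over all genes), and the part of low counts in that size was not tested.

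The closest matches between constructs were chosen by how near the effects lay, so that nearness is a description. DNAJB4, a heat-shock cochaperone of muscle, went from 22.5, 22.5 and 23.7 CPM to 42.6, 40.3 and 43.2 CPM in ish, and from 19.1, 18.6 and 19.3 CPM to 35.0, 34.9 and 34.7 CPM in ish2. This was 1.84-fold in ish and 1.83-fold in ish2. SMPDL3A, a nucleotide phosphodiesterase, rose 2.03-fold and 2.02-fold. MYO5A, an actin motor that carries vesicles, rose 1.73-fold and 1.71-fold, and SYNPO, an actin-binding protein, 1.59-fold and 1.6-fold.

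EDN3 (chr20:59300427-59325992, plus strand), the endothelin peptide of the neural crest, had the highest CPM of the closely matched falls, on a scale not corrected for transcript length. It read 645, 663 and 645 CPM in ish without Dox and 330, 319 and 327 CPM with Dox. The ish2 libraries read 617, 619 and 602 CPM without Dox and 311, 306 and 310 CPM with Dox. The levels of both constructs were near each other before and after Dox, and the fall was 2.00-fold in ish and 1.98-fold in ish2, with a difference of 0.01 (95% interval -0.06 to 0.08). JUP, the junction protein plakoglobin, fell 1.86-fold in both. SORD, sorbitol dehydrogenase, fell 1.83-fold with ish and 1.85-fold with ish2.

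CDT1, KIFC1 and XRCC2 were also among the closest falls. CDT1, which licenses replication origins, read 43.3, 41.7 and 45.3 CPM in ish without Dox and 22.4, 23.6 and 21.9 CPM with Dox. In ish2 it read 43.2, 44.6 and 45.9 CPM without Dox and 22.2, 25.0 and 22.0 CPM with Dox. It fell 1.92-fold with ish and 1.94-fold with ish2. KIFC1, a spindle motor, fell 1.69-fold and 1.70-fold, and XRCC2, a recombination protein, 1.57-fold in both.

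Genes of cell division fell in both constructs, and the 2 lists of them had the largest shares of same-direction calls among the lists described. Of 36 mitosis and G2/M genes, 33 were lower with Dox in both constructs and 0 were higher, beside 14.1% lower and 13.8% higher among all tested genes. The median log2 change of the list was -1.09 in ish and -0.40 in ish2, against -0.01 and 0.01 over all genes. The remaining 3 members, BUB1, BUB3 and NUF2, were called in ish but not in ish2, where they stood at 0.04, 0.01 and -0.04. Tested against a change of 1.2-fold rather than against no change, 22 members were lower in both, beside 759 of all 15206 tested genes. At 1.5-fold or more, 7 of the 36 were lower in both, beside 2.12% of all tested genes, and MKI67, TOP2A and NUSAP1 are examples.

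MKI67, the proliferation antigen Ki-67, fell further in ish2. It read 606, 583 and 565 CPM in ish without Dox and 312, 300 and 311 CPM with Dox. With ish2 the level was 655, 596 and 719 CPM without Dox and 292, 293 and 292 CPM with Dox. The fall was -0.93 in ish and -1.17 in ish2 on the log2 scale, a called difference of -0.24. TOP2A, the topoisomerase that untangles replicated chromosomes, went from 855-870 CPM to 297-305 CPM in ish and from 853-914 CPM to 567-579 CPM in ish2. NUSAP1, a spindle protein, fell from 206-214 CPM to 89.2-90.4 CPM and from 220-237 CPM to 106-116 CPM.

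FOXM1, the transcription factor of mitotic genes, fell by 0.76 in ish and 0.61 in ish2 on the log2 scale. The spindle proteins KIF11 (-1.06 and -0.61) and TPX2 (-0.65 and -0.55) fell in both too. Most members of the list thus fell in both constructs, and the median fall was deeper in ish.

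The DNA replication and S phase list was more evenly shared. Of 41 tested genes, 31 were lower in both (75.6%, beside 14.1% of all) and 0 were higher in both, with medians of -0.44 in ish and -0.46 in ish2. Tested against 1.2-fold, 15 were lower in both, beside 759 of all 15206 tested genes. TYMS, thymidylate synthase, fell by 1.03 in ish and 0.72 in ish2. PRIM1, the primase subunit, fell by 1.00 and 0.66, GINS2, of the replicative helicase, by 1.37 and 0.46, and FEN1, the flap nuclease, by 0.43 and 0.60. E2F1 and E2F2 were the only members called in opposite directions, and the E2F2 call in ish was lost when replicate 1 of its Dox libraries was left out (edgeR adjusted p = 0.0782). E2F1 went from 73.3-78.5 CPM to 88.9-92.4 CPM in ish and from 80.8-91.4 CPM to 56.9-63.9 CPM in ish2.

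**Figure D4:**
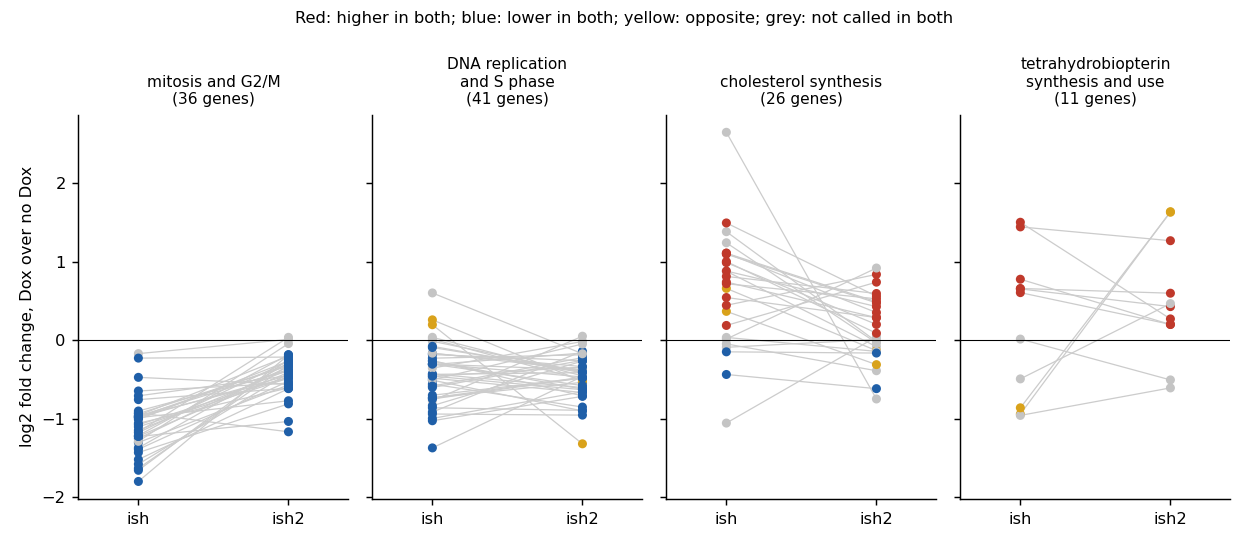
Log2 fold change with Dox (y axis) of each tested member of 4 lists in ish and ish2, with a line joining the same gene. Of the mitosis genes 33 of 36 lie below 0 and were called in both; in the cholesterol and tetrahydrobiopterin lists 13 of 26 and 6 of 11 were called higher in both.

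The regulators of the G1 phase did not move as one. Of 16 members, 4 were lower in both (25%, beside 14.1% of all) and 1 was higher in both. Another 7 went in opposite directions (43.8%, beside 26.1% of all). CCND1, cyclin D1, fell from 223-239 CPM to 52.1-58.7 CPM in ish and from 222-242 CPM to 137-146 CPM in ish2. CDK4, its kinase partner, fell by 0.22 and 0.20, a difference of 0.01 that was not called. CDKN1A, the inhibitor p21, rose from 98.1-115 CPM to 451-461 CPM in ish and from 122-144 CPM to 186-201 CPM in ish2. It was the only member that rose in both, and its effects differed by -1.599.

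The promoters of these division genes can be set beside their fall. RefSeq promoter windows were matched for 29 of the 36 mitosis genes and 35 of the 41 S phase genes. In the 250 bases before the start site, on either strand, TTTGAA was found in 14 of the 29 mitosis promoters (48.3%), beside 13.6% of all 27305 RefSeq promoters and 8.43% of those of the tested genes. CCAAT was found in 75.9% of the mitosis promoters, beside 33.0% of all, and both motifs together in 44.8%, beside 4.85%. GCGGGAA, a form of the E2F site, was found in 15 of the 35 S phase promoters (42.9%), beside 5.59% of all. Different motifs can share bases, as TTTGAA and ATTGG do within TTTGAATTGG in MKI67. These lists are known for such motifs, and a match is a description of letters in the window.

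The 200 bases before the start are shown for 3 mitosis genes that hold both TTTGAA and CCAAT and for 2 S phase genes that hold GCGGGAA. They were chosen after their values were seen. Capitals mark those motifs, on either strand, and CACCCCA, a motif bound by KLF factors. ATTGG is CCAAT read on the other strand. The sequences are from RefSeq on GRCh38.p14, written 5′ to 3′ on the gene's strand.
CCNB2: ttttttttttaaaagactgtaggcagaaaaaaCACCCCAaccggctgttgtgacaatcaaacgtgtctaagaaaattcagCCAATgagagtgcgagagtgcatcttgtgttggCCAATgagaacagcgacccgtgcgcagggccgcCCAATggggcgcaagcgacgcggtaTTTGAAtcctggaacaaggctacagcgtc
PLK1: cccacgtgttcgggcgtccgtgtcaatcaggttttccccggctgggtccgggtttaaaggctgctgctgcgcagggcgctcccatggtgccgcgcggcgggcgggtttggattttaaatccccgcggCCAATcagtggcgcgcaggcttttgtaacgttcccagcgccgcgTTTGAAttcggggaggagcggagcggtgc
MKI67: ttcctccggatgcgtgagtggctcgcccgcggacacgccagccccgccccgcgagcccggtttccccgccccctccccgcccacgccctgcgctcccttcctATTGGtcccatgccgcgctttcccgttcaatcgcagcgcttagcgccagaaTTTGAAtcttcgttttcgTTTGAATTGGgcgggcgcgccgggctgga
CDT1: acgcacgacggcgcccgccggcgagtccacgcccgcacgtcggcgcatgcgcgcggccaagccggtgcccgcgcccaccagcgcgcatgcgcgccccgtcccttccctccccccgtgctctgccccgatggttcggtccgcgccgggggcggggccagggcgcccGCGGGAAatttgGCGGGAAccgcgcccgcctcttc
GINS2: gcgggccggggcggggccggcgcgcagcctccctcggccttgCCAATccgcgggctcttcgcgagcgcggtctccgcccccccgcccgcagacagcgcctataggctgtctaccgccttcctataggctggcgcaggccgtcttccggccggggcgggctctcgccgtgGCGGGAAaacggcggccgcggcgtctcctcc
The CCNB2 window is chr15:59104946-59105145 (plus strand), with TTTGAA from base 29 to base 24 before the start and CCAAT boxes beginning 120, 87 and 54 bases before it. The PLK1 window is chr16:23678689-23678888 (plus strand) and holds TTTGAA at the same 29 to 24 bases, with 1 CCAAT box. The MKI67 window is chr10:128126424-128126623 (minus strand) and holds TTTGAA beginning 47 and 29 bases before the start. The CDT1 window is chr16:88803589-88803788 (plus strand), with GCGGGAA beginning 35 and 23 bases before the start. The GINS2 window is chr16:85688955-85689154 (minus strand), with 1 GCGGGAA beginning at base 31.

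The genes with these promoters differed in how the fall was shared. CCNB2, cyclin B2, went from 53.2, 53.4 and 54.0 CPM to 15.8, 15.1 and 15.3 CPM in ish but from 53.4, 54.9 and 55.5 CPM to 49.7, 49.6 and 44.8 CPM in ish2. PLK1, the mitotic kinase, fell by 1.18 in ish and 0.27 in ish2. CDT1 fell by 0.94 and 0.95, whereas GINS2 fell by 1.37 and 0.46. A relation between motifs and the size of the fall was not tested.

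Of 11 tested genes of tetrahydrobiopterin synthesis and use, GCH1 among them, 6 were higher in both (54.5%, beside 13.8% of all tested genes) and 0 lower in both (1 without replicate 3 of the ish2 Dox libraries). The 6 hold the whole route of synthesis and recycling: GCH1, PTS and SPR make the cofactor, and QDPR, PCBD1 and PCBD2 recycle it. SPR, sepiapterin reductase, read 25.7, 25.9 and 24.6 CPM in ish without Dox and 39.6, 41.5 and 39.2 CPM with Dox. In ish2 SPR read 25.8, 25.7 and 30.3 CPM without Dox and 40.7, 42.1 and 41.2 CPM with Dox, so it rose by 0.66 and 0.60 on the log2 scale with no called difference. Tested against 1.2-fold, GCH1, SPR and QDPR were called higher in both, beside 566 of all 15206 tested genes.

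The other steps rose more in ish. PTS, the second enzyme of the route, rose by 1.502 in ish and 0.27 in ish2, QDPR by 0.65 and 0.43, PCBD1 by 0.61 and 0.20 and PCBD2 by 0.78 and 0.20. The PCBD2 call in ish2 was lost when any of 3 ish2 libraries was left out: replicate 1 of the controls (edgeR adjusted p = 0.191), replicate 1 with Dox (0.066) or replicate 2 with Dox (0.0897). GCHFR, the protein that mediates feedback inhibition of GCH1, moved in opposite directions, from 2.54-3.00 CPM to 1.196-1.66 CPM in ish and from 1.84-2.82 CPM to 7.42-7.93 CPM in ish2. AGMO, an enzyme that uses the cofactor, was also opposite (-0.86 and 1.63), although its ish call was lost in DESeq2 (adjusted p = 0.122), with no filter on low counts (edgeR adjusted p = 0.0624) and without any of 4 ish libraries (edgeR adjusted p 0.0774 to 0.126).

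Of 26 tested genes of cholesterol synthesis, 13 were higher in both (50%) and 2 lower in both (7.69%), beside 13.8% and 14.1% of all tested genes. The list medians were 0.73 in ish and 0.14 in ish2. Tested against 1.2-fold, 8 were higher in both, beside 566 of all 15206 tested genes. HMGCS1, which makes HMG-CoA, read 197, 186 and 192 CPM in ish without Dox and 335, 340 and 335 CPM with Dox. In ish2 the values were 205, 202 and 234 CPM without Dox and 331, 318 and 320 CPM with Dox. IDI1, an isomerase of the pathway, rose by 1.11 in ish and 0.49 in ish2, and CYP51A1, a sterol demethylase, by 0.54 and 0.29. FDFT1 and FDPS were opposite, higher in ish and lower in ish2. SREBF2, the pathway's transcription factor, and TM7SF2, a sterol reductase, were the members lower in both.

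The NODAL and activin list, to which LEFTY1 belongs, was mixed. Of 22 tested genes, 5 were higher in both (22.7%, beside 13.8% of all), 2 lower in both (9.09%, beside 14.1%) and 7 opposite (31.8%, beside 26.1%). FST, an extracellular trap of activin, rose by 1.58 in ish and 1.499 in ish2, from 0.165-0.255 CPM to 0.492-0.731 CPM and from 0.181-0.338 CPM to 0.685-0.927 CPM; these are 5 to 25 reads per library. ACVR1B, an activin and NODAL receptor, fell by 0.40 and 0.41 with no called difference. TGFBR2, the TGF-beta receptor, rose from 183-186 CPM to 434-466 CPM in ish and from 211-217 CPM to 319-328 CPM in ish2. SMAD4, the shared signal carrier, rose by 0.46 and 0.17.

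The KLF family did not move as one. Of 14 tested KLF genes, 4 were higher in both (28.6%, beside 13.8% of all), 2 lower in both (14.3%, beside 14.1%) and 4 opposite (28.6%, beside 26.1%). KLF5 rose by 2.95 in ish and 0.94 in ish2, from 2.84-3.29 CPM to 23.2-25.2 CPM and from 3.45-3.79 CPM to 6.49-7.30 CPM. KLF11 rose by 0.16 and 0.57. KLF3 fell by 0.34 and 0.18 and KLF14 by 0.85 and 0.48. KLF4, which shares many targets with KLF2 in endothelium, was opposite (-1.599 and 1.57).

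In the elastic fibre list, 7 of 18 tested genes were lower in both (38.9%, beside 14.1% of all) and 1 higher (2 without replicate 2 of the ish2 Dox libraries). Another 8 were called in opposite directions (44.4%, beside 26.1% of all). The list medians were -0.55 in ish and -0.42 in ish2. FBLN5, which guides elastin assembly, fell from 51.6-54.9 CPM to 11.5-12.1 CPM in ish and from 34.6-37.7 CPM to 14.8-15.97 CPM in ish2. EFEMP2 (-1.17 and -0.92) and LTBP4 (-1.20 and -0.87), which work in the same assembly, fell too, as did FBLN1 (-0.60 and -0.67) and the crosslinking oxidase LOXL1 (-0.49 and -0.62).

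In the cartilage list, 4 of 11 were lower in both (36.4%, beside 14.1% of all) and 0 higher. As many, 4, were called in opposite directions (36.4%, beside 26.1% of all). Those lower in both were COL9A3, COL9A2 (-0.77 and -0.70), COL11A2 (-0.81 and -0.32) and HAPLN3 (-0.96 and -0.36). The COL11A2 call in ish2 was lost in DESeq2 (adjusted p = 0.11), with no filter on low counts (edgeR adjusted p = 0.0731) and without ish2 replicate 1 or 2 without Dox or ish2 replicate 3 with Dox (edgeR adjusted p 0.0762, 0.0866 and 0.112). SOX9, the factor known to drive cartilage collagens, was one of the strongest opposite genes. SOX9 went from 5.89, 7.75 and 6.71 CPM to 1.18, 1.43 and 1.29 CPM in ish, and from 8.16, 7.28 and 6.69 CPM to 48.3, 50.3 and 49.8 CPM in ish2. Its level thus moved with COL9A3 in ish and against it in ish2.

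The neural members were mixed as well. Among 28 axon guidance genes, 10 were lower in both (35.7%, beside 14.1% of all) and 4 higher (14.3%, beside 13.8%). Another 7 were called in opposite directions (25%, beside 26.1% of all). Besides DRAXIN, the cue NTN1 (-1.01 and -0.45), its receptor UNC5C (-0.98 and -0.69) and the semaphorin receptor PLXNA2 (-0.57 and -0.22) fell. SEMA3C, a secreted semaphorin, rose (0.78 and 0.43). PCDH9 was the only one of 8 tested protocadherins that was higher in both (12.5%, near the 13.8% of all). PCDH12 (-1.88 and -1.13) and PCDH1 (-2.03 and -0.54) were lower in both (25%, beside 14.1%). PCDH1 was not called in ish2 without replicate 1 of the controls (edgeR adjusted p = 0.22). Of 11 neural RNA-binding and zinc-finger factors, ELAVL2 was higher in both (9.09%, beside 13.8%). MYT1 and MSI1 (-0.48 and -0.77) were lower in both (18.2%, beside 14.1%).

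Beside EIF5A2, the hypusine and polyamine list had 3 of 14 genes higher (21.4%) and 4 lower (28.6%) in both, beside 13.8% and 14.1% of all. DHPS, which makes the hypusine residue, fell by 0.37 and 0.27. ODC1, the first enzyme of polyamine synthesis, fell by 0.98 and 0.16. OAZ2, an inhibitor of it, rose by 0.54 and 0.33. OAZ1, another such inhibitor, was lower in ish2 (-0.12) and in the mean effect (-0.23). That mean lies below the ish2 effect, so OAZ1 was lower in ish too, and by more than in ish2. SMS, spermine synthase, rose by 0.28 and 0.36.

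The muscle genes separated the constructs rather than joining them. Of 43 contractile genes, 37 (86%) were higher in ish and lower in ish2, beside 26.1% of all tested genes called opposite either way. In both constructs 3 were higher (6.98%) and 1 was lower (2.33%), beside 13.8% and 14.1% of all. The list medians were 2.54 in ish and -0.85 in ish2. MYH3, embryonic myosin, went from 62.3-74.8 CPM to 626-686 CPM in ish and from 55.5-58.9 CPM to 24.2-25.2 CPM in ish2. MYOG, the differentiation factor myogenin, went from 103-110 CPM to 636-665 CPM in ish and from 73.4-93.9 CPM to 16.5-18.5 CPM in ish2. The contractile genes higher in both were MYBPC2 (2.10 and 0.55), MYOM2 (1.51 and 0.62) and TRIM63 (1.86 and 0.41), and TPM3 fell (-0.62 and -0.17).

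Of 28 tested myogenic regulators, 8 were higher in both (28.6%) and 5 lower in both (17.9%), beside 13.8% and 14.1% of all. DES, the muscle intermediate filament, rose from 297-312 CPM to 517-553 CPM in ish and from 313-318 CPM to 481-503 CPM in ish2. MYOD1, the lineage factor, rose from 107-115 CPM to 335-345 CPM in ish but only from 130-139 CPM to 146-154 CPM in ish2. ID1, an inhibitor of MYOD1, rose by 0.83 and 1.00 with no called difference. FGFR4, a growth factor receptor of rhabdomyosarcoma (-1.02 and -0.64), and CDON, a cell-surface promoter of myogenesis (-2.04 and -0.62), fell in both. PAX7 was called only in ish2 (0.00 and -0.91).

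**Figure D5:**
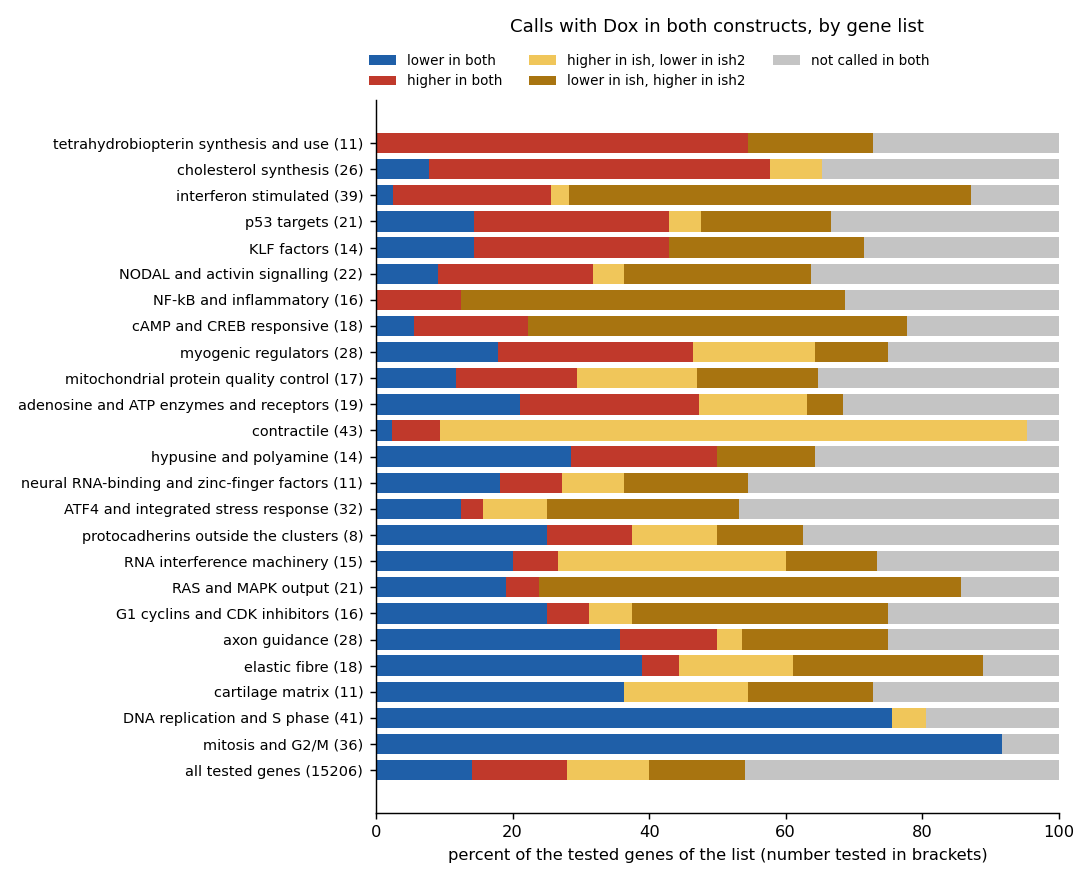
Share of the tested genes of each list (x axis, percent; number tested in brackets) that were called lower in both constructs, higher in both, opposite or not in both. The mitosis (33 of 36) and S phase (31 of 41) bars are mostly blue, the contractile bar (37 of 43) is mostly opposite, and the bottom bar gives all 15206 tested genes.

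In 4 signalling lists, same-direction calls made up 25.6% (interferon), 23.8% (RAS and MAPK), 12.5% (NF-kB) and 22.2% (cAMP) of the tested genes, beside 27.9% of all. Opposite calls made up 61.5%, 61.9%, 56.2% and 55.6% of these lists in the same order, beside 26.1% of all. In the interferon list, 23 of 39 genes were lower in ish and higher in ish2, 9 were higher in both (23.1%, beside 13.8% of all) and 1 lower in both. OAS3, a sensor enzyme of double-stranded RNA, rose by 0.29 in ish and 1.12 in ish2, SAMD9L by 0.50 and 1.08, and UBA7, which activates ISG15, by 0.95 and 0.61. In the RAS and MAPK list, 13 of 21 were lower in ish and higher in ish2, and 4 were lower in both, among them CCND1 and SPRED2 (-0.63 and -0.38). In the NF-kB list, 9 of 16 were lower in ish and higher in ish2, and 2 rose in both, NFKB1 (0.27 and 0.18) and TNFAIP2 (0.48 and 0.54). Of 18 cAMP-responsive genes, 10 were lower in ish and higher in ish2 and 3 rose in both, with CITED2 at 0.73 and 0.49.

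Lists that bear on Dox and on the hairpin machinery had same-direction calls in 29.4% (mitochondrial protein quality control), 15.6% (integrated stress response) and 26.7% (RNA interference) of their tested genes, beside 27.9% of all. Of 17 genes of mitochondrial protein quality control, 3 were higher in both and 2 lower, with medians of 0.04 in ish and 0.01 in ish2; without replicate 3 of the ish2 controls 4 were lower. The mitochondrial chaperone HSPD1 rose from 636-640 CPM to 759-765 CPM in ish and from 726-787 CPM to 866-926 CPM in ish2, and ATF5, a factor of the mitochondrial stress response, fell by 1.03 and 0.73. Of 32 genes of the integrated stress response, which ATF4 leads, 1 was higher and 4 were lower in both. Leaving out single libraries gave 0 or 1 higher and 3 to 7 lower, the 7 without replicate 3 of the ish2 controls. PHGDH, the first enzyme of serine synthesis, fell by 0.43 and 0.75. Of 15 RNA interference genes, PRKRA, a partner of Dicer, was higher in both (0.80 and 0.43). TNRC6B (-0.37 and -0.60), TNRC6C (-0.54 and -0.41) and ADAR (-0.31 and -0.17) were lower in both.

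Among 21 p53 targets, 6 were higher (28.6%) and 3 lower (14.3%) in both, beside 13.8% and 14.1% of all tested genes. SESN1, a stress-induced regulator of growth signalling, rose by 1.73 in ish and 0.38 in ish2, and TIGAR, which lowers glycolysis, by 0.60 and 0.39. FDXR fell by 0.88 and 0.42. Of 19 genes of adenosine and ATP enzymes and receptors, 5 were higher (26.3%) and 4 lower (21.1%) in both. P2RX5, an ATP-gated channel of muscle, rose from 3.86-4.31 CPM to 7.31-8.63 CPM in ish and from 4.52-5.09 CPM to 8.64-9.15 CPM in ish2. ENPP1, which makes AMP from extracellular ATP, rose by 0.99 and 0.52. ALPL, a phosphatase that can also make adenosine from AMP, fell by 0.55 and 0.57, and the nucleoside transporter SLC29A1 fell by 0.31 and 0.94.

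Among the marker lists of other cell types, the summed level of the fibroblast list was higher with Dox in both constructs. The 3 tested epithelial markers, KRT8, KRT18 and CLDN4, were lower in ish and higher in ish2, with a summed level of 32.7-34.5 CPM against 6.89-8.87 CPM in ish and 38.2-43.6 CPM against 61.7-62.3 CPM in ish2; EPCAM had 2 to 12 reads per library. The 3 tested endothelial markers summed to 10.2-10.9 CPM against 2.52-3.09 CPM in ish and 11.4-12.2 CPM against 11.2-12.02 CPM in ish2. The 2 tested immune markers summed to 0.447-0.745 CPM against 0.277-0.361 CPM in ish and 0.434-0.788 CPM against 1.54-2.00 CPM in ish2. The 6 neural markers summed to 270-271 CPM against 400-426 CPM in ish and 280-299 CPM against 272-292 CPM in ish2. The 5 tested fibroblast markers summed to 3835-3926 CPM against 5090-5277 CPM in ish and 4526-4555 CPM against 5018-5090 CPM in ish2. Of these, COL3A1 (0.49 and 0.17) and LUM (3.60 and 1.404) were higher in both and COL1A1 (-0.64 and -0.22) lower. The other 2 tested members were called in opposite directions. That count was 1 in DESeq2, in separate fits and in most fits that left out a library, and 0 in the 1.2-fold test. With COL1A1 lower in both, the sum does not describe a shared rise of the members. DPT had at most 1 read. The LUM call in ish2 was lost without replicate 2 of the controls or of Dox (edgeR adjusted p = 0.104 and 0.0672). The part of these genes in the common response was not tested.

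Gene length was a property that the choice of members did not use. The 262 rises at 1.5-fold with a GENCODE match had a median span of 52.4 kb, and the 306 such falls 19.1 kb, against 30.7 kb over all tested genes and 29.8 kb for the genes opposite at 1.5-fold. Their exonic lengths were close, at 4.93 kb and 4.36 kb, beside 4.88 kb over all genes. Among genes with a mean of at least 1 log2 CPM the spans were 51.4 kb for 139 rises and 22.6 kb for 233 falls, against 32.7 kb. When these genes were split by span into 5 bins of equal size, the share that rose was 0.868% in the bin of the shortest genes and 1.78% in that of the longest, and the share that fell was 3.02% and 1.45%. The rises also had lower CPM, a scale not corrected for length, with a median of 2.29 CPM against 9.66 CPM for the falls and 26.3 CPM over all genes.

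The genes whose levels followed the markers most closely over the 12 libraries were listed by Pearson correlation of log2 CPM. The libraries fall into 4 groups, so these values describe shared group differences. For KLF2 they were PRSS23 (r = 0.992), NCR3LG1 (0.991) and DCUN1D5 (0.989). For LEFTY1 they were ZNF395 (0.992), ABCA2 (0.990) and CADM4 (0.985), and for GCH1 OXSM, BSDC1 and RAB22A (0.980, 0.980 and 0.979). SUGT1 (0.994) and RRN3 (0.991) were among those most like PCDH9. Each gene named here as most like a marker was called with the same sign in both constructs.

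The genes most strongly called in opposite directions set the scale against which the common changes stand. MYBPH, a myosin-binding protein, rose 5.11-fold in ish and fell 4.88-fold in ish2. KCNH2, a potassium channel, rose 4.24-fold in ish and fell 3.81-fold in ish2. The chemokine CCL5 fell 5.58-fold in ish and rose 5.07-fold in ish2. At 3-fold or more in both constructs, 87 genes were opposite, 17 were higher in both and 10 were lower in both.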

How the data were processed

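The deposited table holds raw read counts per gene symbol for 12 libraries, which the authors did not normalize. Per the labels' protocols, stranded mRNA libraries were read as 75-base pairs; the submitters' processing notes list the build GRCh38, Subread 1.6.3 with featureCounts, STAR 2.7.3a and Trim Galore 0.6.4. The sources used here do not give the annotation or strand setting behind the counts. Columns were matched to titles by treatment and replicate number; the headers' Sh1 was taken as ish because Sh2 matches ish2. The 5 rows that name no gene were left out of fits. Of 26485 symbols, 15206 passed filterByExpr and 11279 did not. After TMM scaling, edgeR 4.0.16 (quasi-likelihood, robust) fitted 4 group means to all libraries at once and gave Dox against no Dox in each construct, their mean, the difference of both effects, and ish2 against ish without Dox, each adjusted by Benjamini-Hochberg over all tested genes. Fold changes are Dox over no Dox. SE was derived from the size of the log2 effect over the root of its F value, and intervals of a difference join both SEs. The biological coefficient of variation was 2.44%, so small changes pass the test. The fitting script was tested on simulated data.

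The members and the 30 gene lists were chosen with earlier results of these data known. Genes named are NT5E, KLF2, LEFTY1, GCH1 and PCDH9, the 15 largest changes each way by the smaller of both effects (at least 1 log2 CPM in the higher group, no overlap), the 8 closest pairs of effects each way, up to 5 list members with the smallest p in both, all members of short lists, the 3 largest opposite genes each way and a few muscle and division genes. CCNB2, PLK1, BUB1, BUB3, NUF2, E2F1, E2F2, KLF4, LEFTY2, FDFT1, FDPS, SREBF2 and TM7SF2 were named after their values were seen. A few genes that the rule selects are not reported here. Gene positions are from GENCODE v29 on GRCh38, and promoters from RefSeq on GRCh38.p14. Promoters matched under 80% of the genes changed 1.5-fold in both (71.1% of the rises and 73.4% of the falls), so no motif share is given for them. Same-numbered replicates did not deviate together (residual correlations -0.0798 to 0.0295). Alternatives were RLE scaling, DESeq2 1.42.0, no filter, a replicate block, separate fits, a 1.2-fold test, joint adjustment of the larger p, and leaving out each library.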

Additional observations from a re-analysis of the deposited data

Results flagged for a closer look

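Of the 163 tested genes named above (OAZ1 not counted), 111 had Dox effects that differed between the constructs by the edgeR interaction test (adjusted p under 0.05). They are listed here for that reason. Over all tested genes the test called 72.6%. Values are the ish2 effect minus the ish effect on the log2 scale. No cause was tested.

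In 39 genes that fell in both, the fall was deeper in ish, the construct with the lower remaining NT5E. The differences were NT5E 2.74, ACOT12 2.33, TRIL 1.94, CCNB2 1.61, PCDH1 1.49, CDON 1.42, DUSP9 1.42, CCND1 1.37, FBLN5 0.93 and GINS2 0.91. Smaller values were PLK1 0.91, TOP2A 0.90, COL9A3 0.89, TP53I11 0.84, ODC1 0.82, MYT1 0.76, PCDH12 0.75, HAPLN3 0.61, NTN1 0.56 and COL11A2 0.48. Below these stood FDXR 0.46, KIF11 0.45, TPM3 0.45, COL1A1 0.42, FGFR4 0.38, KLF14 0.37, PLXNA2 0.35, PRIM1 0.34, LTBP4 0.33 and TYMS 0.31. The next were UNC5C 0.29, IGFBP2 0.26, SPRED2 0.26, EFEMP2 0.25, NUSAP1 0.19, KLF3 0.16, FOXM1 0.14, ADAR 0.14 and TPX2 0.10.

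In 11 genes the fall was deeper in ish2. They were LEFTY1 -0.89, SLC29A1 -0.63, PHGDH -0.32, MSI1 -0.28, MKI67 -0.24, CADM4 -0.24, TNRC6B -0.23, FEN1 -0.17, ABCA2 -0.15, LOXL1 -0.13 and ZNF395 -0.11.

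In 32 genes that rose in both, the rise was greater in ish. Among them were LUM -2.20, KLF5 -2.01, GOLGA7B -1.67, CDKN1A -1.599, MYBPC2 -1.55, CADPS2 -1.54, TRIM63 -1.45, MYOD1 -1.42, SESN1 -1.36, PTS -1.23 and PLA2G4C -0.90. Then came MYOM2 -0.90, TGFBR2 -0.69, IDI1 -0.62, PCBD2 -0.58, KIAA1217 -0.53, ENPP1 -0.46, CYP2W1 -0.40, PCBD1 -0.40, CPEB4 -0.40, PRKRA -0.37 and SEMA3C -0.35. Lower still were UBA7 -0.34, COL3A1 -0.32, SMAD4 -0.30, CYP51A1 -0.25, CITED2 -0.25, QDPR -0.23, HMGCS1 -0.22, OAZ2 -0.21, TIGAR -0.20 and DES -0.17.

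In 8 genes the rise was greater in ish2, with PRDM8 1.30, OAS3 0.83, PCDH9 0.75, SAMD9L 0.59, AGT 0.52, KLF11 0.42, SUGT1 0.24 and RRN3 0.21.

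The named genes lower in ish and higher in ish2 differed by construction of that group, with SOX9 5.13, CCL5 4.82, KLF4 3.17, KRT8 2.91, KRT18 2.76, GCHFR 2.58, AGMO 2.49, CLDN4 1.67 and EIF5A 0.49. Those higher in ish and lower in ish2 stood at MYOG -4.87, MYBPH -4.64, MYH3 -4.48, KCNH2 -4.01, E2F2 -1.52, FDFT1 -0.79, E2F1 -0.78 and FDPS -0.68. Genes called in 1 construct only stood at NUF2 1.245, BUB1 1.21, PAX7 -0.91 and BUB3 0.18.

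Reads outside the gene counts also moved. The mean share assigned to no gene was 12.8% in ish with Dox and 11.9% without, and 10.96% in ish2 with Dox and 11.7% without.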

How the results depend on the processing

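Of the alternatives run, only the test against a 1.2-fold change moved a count of calls over all genes by over 1.5 times. Counts within short lists moved more, and only some of these moves are given beside the lists above. Under the 1.2-fold test, genes higher in both went from 9 to 2 (interferon), 8 to 3 (myogenic regulators) and 6 to 3 (p53). Those lower in both went from 10 to 5 (axon guidance) and 4 to 0 (hypusine and polyamine). Counts in several other lists also fell. Each construct fitted alone gave 4 mitochondrial quality control genes lower in both, and 0 integrated stress response genes and 1 fibroblast marker higher in both. The 1.2-fold test gave 566 genes higher in both constructs, 759 lower in both, 1404 opposite and 5042 for the mean effect; fewer small changes can pass that test. It kept 529 of the 593 genes at 1.5-fold or more in both. Leaving out each library in turn gave 1823 to 1956 genes higher in both, 2145 to 2234 lower in both and 3754 to 3888 opposite; at 1.5-fold the ranges were 239 to 260, 324 to 342 and 743 to 788, and the mean effect had 11039 to 11249. DESeq2 called 3780 genes with the same direction (540 at 1.5-fold), 3770 of them shared with edgeR, and RLE scaling 4249, of which 4167 were shared. With a replicate block in the fit, 4147 genes had the same direction, 4130 of them shared, and the block moved no count over all genes by over 1.5 times; the numbers did not pair the samples. Separate fits gave no mean effect, nor did the joint adjustment of the larger p (4119 genes). Of 8636 values of the 163 tested genes named in the results (OAZ1 not counted), under the alternatives, 8531 kept their direction and call, 98 lost the call and 7 gained it. Among other genes that the rule selects, 1 changed direction: DCN in ish2, at 0 without replicate 1 of the ish2 controls, the only ish2 library with DCN reads, and at -5.76 without replicate 3. Depth limits LUM (1 to 6 reads per library without Dox), FST (5 to 9), LEFTY2 (5 to 15 in all libraries) and LEFTY1 with Dox (9 to 45).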

Other observations

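The genes of highest CPM (not corrected for length) among those changed by 1.5-fold or more in both constructs were listed after their values were seen, and they hold structural genes not described above. TNC, the matrix protein tenascin-C, had the highest CPM of the rises and changed by log2 0.86 in ish and 1.27 in ish2. ITGA6, an integrin subunit that binds laminin, rose by 0.93 and 1.07, DYSF, a membrane repair protein of muscle, by 0.90 and 1.00, and SYNM, an intermediate filament protein that partners desmin, by 0.64 and 1.04. RHOB, a small GTPase of endosomes, rose by 1.15 and 0.96, and LRRC17, a secreted leucine-rich protein, by 2.27 and 0.94. FABP3, the muscle fatty acid carrier, rose by 1.249 and 0.67, and ACSS2, which makes acetyl-CoA from acetate, by 0.93 and 0.61.

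Among the falls, TUBB, a beta-tubulin, fell by 0.69 in ish and 0.73 in ish2, though close tubulin copies may share its reads. TPM4, a non-muscle tropomyosin, fell by 0.59 and 0.75 and MYH10, a non-muscle myosin, by 0.67 and 0.64. LAMA5, a laminin chain, fell by 1.92 and 0.87, MDK, the growth factor midkine, by 1.31 and 0.62, and SOX8, a SOX family factor, by 0.81 and 0.97. LMNB1, lamin B1, fell by 1.00 and 0.73, and SMC2, of condensin, by 1.197 and 0.66.

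A few reads of genes that mark other cell types stood out in ish2 replicate 1 without Dox, which held 19 reads of PDGFRA, 14 of CDH1 and 12 of DCN. The other ish2 libraries held at most 4, 1 and 0 reads of these genes.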
